A study of Homo sapiens with 6 samples.

Results

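Polycomb repressive complex 2 (PRC2) was described here in K562 cells through the RNA of 10 genes: EZH1 and EZH2, EED, SUZ12, RBBP4 and RBBP7, JARID2, and MTF2, PHF1 and PHF19. The genes were chosen by name, as subunits of the complex, and all 10 were found among the 12486 genes of the expression table and among the 12276 genes tested. K562 is a human chronic myeloid leukemia line that carries the Bcr-Abl fusion kinase. RNA-seq was performed on 3 libraries of cells with a stable shRNA against luciferase (sh-luc, the control) and 3 libraries of cells with a stable shRNA to lncRNA-IUR1 (sh-IUR1), a noncoding RNA that the sample labels call lncRNA-up91. In each group, a library without a replicate number, an r1 and an r2 were labelled. Levels are given in FPKM, fragments scaled to transcript length and library size, so that genes of different length can be set side by side. The depth of the libraries is unknown, and the RNA targeted by the shRNA was not analysed here, so the knockdown itself was not checked.

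PRC2 is the enzyme that methylates lysine 27 of histone H3, a mark of silenced developmental genes. EZH2 or its paralog EZH1 carries the methyltransferase domain, which is active only when bound to EED and SUZ12, and RBBP4 or RBBP7 binds histones beside them. Around this core, the complex takes up either a Polycomb-like protein (MTF2, PHF1 or PHF19), which binds unmethylated CpG-rich DNA, or JARID2 with AEBP2, which binds ubiquitinated histone H2A. EZH2 is typical of dividing cells and EZH1 of resting cells, and in blood cancers EZH2 is altered both by gain and by loss of function.

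The sh-luc library without a number stood apart from the other libraries. On the first principal component of log2(FPKM + 1), which held 59.3% of the variance, it scored −19.8, whereas sh-luc r1 and r2 scored 4.12 and 1.61. The sh-IUR1 libraries scored 4.79 (unnumbered), 13.0 (r1) and −3.75 (r2) on that component. Pearson's r between libraries, across genes, was 0.990 to 0.998. Results are therefore given with all libraries and, where stated, without sh-luc unnumbered.

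The 10 genes covered a wide range of levels. PHF19 was the most abundant, with a mean over the 6 libraries of 209.9 FPKM, which is above 97.0% of the genes tested. RBBP7 (118.0 FPKM), EZH2 (63.6 FPKM), RBBP4 (49.6 FPKM), EED (34.8 FPKM) and SUZ12 (20.7 FPKM) followed, and down to SUZ12 each gene was higher than the next in 6 of 6 libraries. From SUZ12 to JARID2 the neighbours were not separated, since the ranges of SUZ12, PHF1 (18.7 FPKM), MTF2 (16.4 FPKM) and JARID2 (15.6 FPKM) overlapped. EZH1 was the least abundant member, below JARID2 in 6 of 6 libraries, with a mean of 8.46 FPKM, above 44.7% of the genes tested.

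Of the members, 0 of 10 passed an adjusted p of 0.05 between sh-IUR1 and sh-luc (limma), as did 0 of 12276 genes in all (0.0%). At an unadjusted p under 0.05 there were 0 of 10 members, beside 325 of the 12276 genes (2.65%). The groups did not overlap for 1 of 10 members, RBBP4, which was lower in sh-IUR1, beside 868 genes in either direction (7.07%), of which 496 were higher (4.04%) and 372 lower (3.03%) in sh-IUR1. A count of 1 in 10 members does not set them apart from that background. With 3 libraries against 3, an exact two-sided permutation test cannot give a p under 0.1.

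EZH2, the main catalytic subunit of dividing cells (gene ID 2146, chr7:148807383-148884291, minus strand, GRCh38.p14), had 54.8, 64.9 and 64.2 FPKM in sh-luc unnumbered, r1 and r2. The sh-IUR1 libraries had 67.9, 68.3 and 61.6 FPKM in the same order. The control library without a number was the lowest of the 6, sh-IUR1 r1 was the highest, and the groups overlapped. Mean levels were 61.3 ± 5.64 FPKM in the control group and 66.0 ± 3.77 FPKM in the knockdown group (SD, n = 3 each). The log2 fold change of sh-IUR1 over sh-luc was 0.11 (SE 0.08, 95% interval −0.07 to 0.28, limma adjusted p = 0.93), and 0.03 (SE 0.06) without sh-luc unnumbered. In bulk RNA, less RNA per cell and fewer cells with that RNA cannot be told apart. Fold changes throughout are on the log2(FPKM + 1) scale, which understates the change of low genes.

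EZH1 (gene ID 2145, chromosome 17) had 7.92, 8.51 and 8.02 FPKM in the control libraries and 9.05, 8.49 and 8.79 FPKM in the knockdown libraries. sh-IUR1 r1 fell just below sh-luc r1, so that the groups overlapped, and the log2 fold change was 0.10 (SE 0.07, adjusted p = 0.93; 0.06 with quantile normalization). EZH2 exceeded EZH1 in every library, by ratios of 6.92, 7.63 and 8.0 in the controls and 7.51, 8.05 and 7.01 after knockdown. The mean ratio was 7.52 ± 0.550 in the control group and 7.52 ± 0.519 in the knockdown group (SD, n = 3 each), and the exact permutation test on the log2 ratio gave p = 1.0. The balance of the alternative catalytic subunits thus differed between groups by less than the spread between libraries. Without sh-luc unnumbered the log2 ratio was lower by 0.06 in sh-IUR1 (exact permutation p = 0.5).

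SUZ12, the scaffold on which the accessory proteins assemble (gene ID 23512, chr17:31937007-32001038, plus strand), varied most among the members. Its level was 24.6, 19.6 and 19.3 FPKM in sh-luc unnumbered, r1 and r2, and 21.6, 16.6 and 22.5 FPKM in the sh-IUR1 libraries. The highest library was sh-luc unnumbered, in which EZH2 was lowest, and the lowest was sh-IUR1 r1, in which EZH2 was highest. The highest level was 1.48 times the lowest, compared with 1.08 times for RBBP4. The means were 21.1 ± 2.99 FPKM in the control group and 20.2 ± 3.17 FPKM in the knockdown group (SD, n = 3 each). The log2 fold change of −0.06 (SE 0.12, adjusted p = 0.95) became 0.04 without sh-luc unnumbered and 0.07 without sh-IUR1 r1, so its direction rested on single libraries.

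EED, which binds the methylated histone tail and stimulates the enzyme (gene ID 8726, chromosome 11), had 37.5, 33.8 and 34.4 FPKM in sh-luc and 34.5, 33.8 and 34.9 FPKM in sh-IUR1. sh-luc unnumbered was the highest library, and the log2 fold change of −0.03 (SE 0.06, adjusted p = 0.95) became 0.01 without that library. SUZ12, EED and RBBP4 have pseudogene copies in the RefSeq annotation that the table does not list, and the assignment of reads shared with such copies is not given in the sources used here, so these levels are uncertain to that extent.

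RBBP4 and RBBP7, the histone-binding subunits that PRC2 shares with other chromatin complexes, were the steadiest members. RBBP4 (gene ID 5928, chromosome 1) had 51.6, 49.8 and 50.1 FPKM in sh-luc and 49.0, 47.7 and 49.1 FPKM in sh-IUR1. Every knockdown library was below every control library, with a log2 fold change of −0.05 (SE 0.06, adjusted p = 0.93; −0.04 without sh-luc unnumbered) and an exact permutation p = 0.1, the smallest possible. The difference of the means was −3.80%. RBBP7 (gene ID 5931, chromosome X) had 123, 120 and 117 FPKM in sh-luc and 118, 113 and 118 FPKM in sh-IUR1, and its groups overlapped (log2 fold change −0.04, SE 0.05, adjusted p = 0.93; −0.02 without sh-IUR1 r1 and −0.03 without sh-luc unnumbered). RBBP7 exceeded RBBP4 by a ratio of 2.33 to 2.41 in the 6 libraries. These paralogs are similar in sequence, as are EZH1 and EZH2, and reads that fit both may have been split between them.

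Among the Polycomb-like proteins, which guide the complex to CpG islands, PHF19 (gene ID 26147, chromosome 9) had 218, 204 and 219.76 FPKM in sh-luc and 199.92, 208 and 209 FPKM in sh-IUR1. The groups overlapped, with a log2 fold change of −0.06 (SE 0.06, adjusted p = 0.93) that was −0.01 with quantile normalization and −0.03 without sh-IUR1 unnumbered. PHF19 made up 85.0% to 86.8% of the summed FPKM of MTF2, PHF1 and PHF19 in the 6 libraries. PHF1 (gene ID 5252, chromosome 6) had 20.1, 19.3 and 18.6 FPKM in the controls and 17.1, 18.5 and 18.9 FPKM in the knockdown libraries, a log2 fold change of −0.08 (SE 0.07, adjusted p = 0.93) that was −0.04 without sh-IUR1 unnumbered. MTF2 (gene ID 22823, chr1:93079283-93139076, plus strand) had 17.2, 16.9 and 14.8 FPKM in sh-luc and 17.7, 14.0 and 18.0 FPKM in sh-IUR1. The sh-IUR1 libraries held both the highest and the lowest MTF2 level, and its log2 fold change of 0.02 (SE 0.10, adjusted p = 0.98) turned to −0.0009 with median-ratio scaling. It was −0.05 without sh-luc r2, −0.04 without sh-IUR1 r2, −0.03 without sh-IUR1 unnumbered and 0.13 without sh-IUR1 r1, so its direction rested on single libraries.

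JARID2, which recruits PRC2 and regulates its activity (gene ID 3720, chromosome 6), had 13.95, 15.69 and 15.95 FPKM in sh-luc and 15.6, 16.2 and 16.4 FPKM in sh-IUR1. Like EZH2 and EZH1 it was lowest in sh-luc unnumbered, and its log2 fold change of 0.08 (SE 0.07, adjusted p = 0.93) was 0.02 without that library. Its partner AEBP2 had 6.33, 5.32 and 5.45 FPKM in sh-luc and 5.50, 5.2 and 4.90 FPKM in sh-IUR1 (log2 fold change −0.11, SE 0.09, adjusted p = 0.93, and −0.04 without sh-luc unnumbered). MTF2, PHF1 and PHF19 together held 92.63%, 91.97% and 92.2% of the summed FPKM of the accessory subunits (these with JARID2 and AEBP2) in the controls, and 91.76%, 91.83% and 92.05% after knockdown. The share was 92.3% ± 0.337 in the control group and 91.9% ± 0.155 in the knockdown group (SD, n = 3 each), and the groups overlapped (exact permutation p = 0.2). The difference of −0.39 percentage points was −0.21 without sh-luc unnumbered (exact permutation p = 0.3) and −0.54 without sh-luc r1 (exact permutation p = 0.1). This share is one of RNA and says nothing of how much of each protein is bound in the complex.

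In the fit with all libraries, 4 of 10 members had a positive and 6 a negative fold change (3 and 7 with median-ratio scaling), with a median of −0.04, beside a median of 0.02 over all genes tested. Without sh-luc unnumbered, 6 were positive and 4 negative, with a median of 0.02, from −0.06 for PHF1 to 0.08 for EZH1. Without sh-IUR1 r1 the tally was 5 and 5 and the median also 0.02, so the median turned positive when either of these libraries was left out. The summed FPKM of the 10 genes was 567.93, 552.77 and 561.93 in the control libraries and 550.44, 545.05 and 557.07 in the knockdown libraries. Over the 6 libraries, the SD of log2(FPKM + 1) was above 0.09, the median of the 6428 genes with mean levels between those of EZH1 and PHF19, for 3 members: SUZ12 (0.19), MTF2 (0.14) and EZH2 (0.12).

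The promoter sequences of these 3 members are shown because their levels varied most between libraries. They are from RefSeq (GRCh38.p14), from 250 bases before the gene start to 20 bases after it, on the strand of the gene, for EZH2 at chr7:148884272-148884541 (minus strand), SUZ12 at chr17:31936757-31937026 (plus strand) and MTF2 at chr1:93079033-93079302 (plus strand). Capitals mark matches to the motifs given after the sequences.
EZH2: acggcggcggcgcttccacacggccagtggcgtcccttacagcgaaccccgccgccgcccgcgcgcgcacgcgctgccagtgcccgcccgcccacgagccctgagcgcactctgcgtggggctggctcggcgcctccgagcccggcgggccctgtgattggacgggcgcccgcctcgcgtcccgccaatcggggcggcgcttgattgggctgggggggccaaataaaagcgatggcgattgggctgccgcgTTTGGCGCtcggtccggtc
SUZ12: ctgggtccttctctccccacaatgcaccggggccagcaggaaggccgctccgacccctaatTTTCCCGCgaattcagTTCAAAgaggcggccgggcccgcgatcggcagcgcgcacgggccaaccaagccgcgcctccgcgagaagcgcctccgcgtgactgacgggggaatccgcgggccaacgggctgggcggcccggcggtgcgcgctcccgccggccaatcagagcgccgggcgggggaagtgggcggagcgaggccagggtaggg
MTF2: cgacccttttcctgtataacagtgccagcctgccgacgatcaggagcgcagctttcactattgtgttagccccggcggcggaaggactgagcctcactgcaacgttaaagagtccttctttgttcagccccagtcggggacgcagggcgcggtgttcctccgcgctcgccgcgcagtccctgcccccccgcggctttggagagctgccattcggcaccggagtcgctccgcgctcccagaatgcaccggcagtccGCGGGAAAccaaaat

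Windows of 300 bases, from 250 before to 50 after a start, were held for 10 of 10 members (15 windows), and 6 motifs were searched in them on both strands, chosen after the members' values had been seen. For the E2F factors, which drive genes of DNA replication, the letters were TTTCCCGC, TTTGGCGC, TTTGCCGC and TTTCGCGC. The others were TGATGNAA, which ATF4 and CEBP factors bind, and TTTGAA, the cell cycle homology region. TTTCCCGC was found for MTF2, PHF19 and SUZ12 (1.63% of 35116 windows of all genes hold it), TTTGGCGC for EZH2 (0.652%) and TTTGCCGC for EZH1 (0.607%). TTTCGCGC (0.515%) and TGATGNAA (3.62%) were found in 0 of the 15 windows, and TTTGAA (15.2%) in 1, that of SUZ12. In the EZH2 window the match begins at base 2 of the transcript and in the MTF2 window at base 6, whereas in the SUZ12 window it begins 189 bases before the start. A match of letters is a description and not a binding site.

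EZH2 and SUZ12 lay on opposite sides of their means in all libraries but sh-IUR1 unnumbered, a pattern that was chosen for description after the values had been seen and was not tested. The ratio of EZH2 to SUZ12 was 2.23, 3.32 and 3.33 in sh-luc unnumbered, r1 and r2, and 3.15, 4.12 and 2.74 in the sh-IUR1 libraries. It was lowest in sh-luc unnumbered and highest in sh-IUR1 r1, a range of 1.85 times, and the groups overlapped. The mean ratio was 2.96 ± 0.633 in the control group and 3.335 ± 0.706 in the knockdown group (SD, n = 3 each). Without sh-luc unnumbered the control mean was 3.325, close to that of the knockdown group. Relative to the mean of the 6 libraries, on the log2(FPKM + 1) scale, EZH2 was at −0.21 and SUZ12 at 0.25 in sh-luc unnumbered, and EZH2 at 0.10 and SUZ12 at −0.29 in sh-IUR1 r1. The deviations of EZH2 and SUZ12 were smaller in sh-luc r1 (0.032 and −0.065), sh-luc r2 (0.016 and −0.088) and sh-IUR1 r2 (−0.042 and 0.125). In sh-IUR1 unnumbered both were above their means, EZH2 at 0.10 and SUZ12 at 0.07.

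The mean levels of other gene lists also differed between these libraries, which is given as a description and was not tested. The stress list, genes induced through ATF4 and CHOP (15 of 16 in the table), averaged −0.82 in sh-luc unnumbered and 0.39 in sh-IUR1 r1, in the direction of EZH2. Its summed level was 976, 1978 and 1747 FPKM in sh-luc and 1951, 2167 and 1642 FPKM in sh-IUR1, with DDIT4 the most abundant gene. The proliferation list (22 of 22) averaged 0.09 and −0.11 in those libraries and the K562 markers (9 of 9) 0.23 and −0.17, in the direction of SUZ12. Both lists were also on the side of SUZ12 in sh-luc r1 and sh-IUR1 r2. In sh-IUR1 unnumbered they averaged −0.03 and −0.05, with SUZ12 at 0.07. In sh-luc r2 the proliferation list averaged 0.03, with SUZ12 at −0.088. The proliferation genes summed to 2005, 1885 and 1998 FPKM in sh-luc and 1870, 1813 and 1945 FPKM in sh-IUR1, with MCM7 the most abundant. Their part in the differences of the PRC2 genes was not tested. Of all genes tested, 62.5% had their highest or lowest level in sh-luc unnumbered, as did 8 of the 10 members.

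The genes most like EZH2 over the 6 libraries, by Pearson's r of log2(FPKM + 1) among 10631 other genes averaging 1 FPKM or more, were PRELID3A, COX19, PLEKHG4, POC1A and PTPDC1, with r of 0.997 to 0.999. PLEKHG4, for example, had 15.6, 20.9 and 20.8 FPKM in sh-luc and 22.3, 22.7 and 19.4 FPKM in sh-IUR1. With only 6 libraries, 1266 of the 10631 genes had an r over 0.9 with EZH2, and the libraries share the separation of sh-luc unnumbered. Among the members, r with EZH2 was highest for JARID2 (0.77) and EZH1 (0.62) and lowest for EED (−0.92), given as a description.

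The enzymes that remove the PRC2 mark, KDM6A and KDM6B, had lower mean levels (6.68 and 6.40 FPKM) than any of the 10 PRC2 members, though not than AEBP2 (5.45 FPKM). KDM6B had 3.60, 6.53 and 6.49 FPKM in sh-luc and 7.04, 8.85 and 5.88 FPKM in sh-IUR1. It was lowest in sh-luc unnumbered, the groups overlapped, and the log2 fold change of 0.36 (SE 0.19, adjusted p = 0.93) was 0.12 without that library. KDM6A had 5.27, 7.05 and 6.41 FPKM in sh-luc and 7.43, 7.86 and 6.09 FPKM in sh-IUR1, with a log2 fold change of 0.17 (SE 0.12, adjusted p = 0.93) that was 0.07 without it. Of the other PRC2 partners, EPOP, which links the complex to elongin, had 6.38, 5.21 and 5.82 FPKM in sh-luc and 4.70, 4.85 and 5.66 FPKM in sh-IUR1, and LCOR had 2.92 to 3.45 FPKM. EZHIP, an inhibitor of EZH2, was not analysed here.

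PRC1, which ubiquitinates histone H2A and compacts chromatin at PRC2 targets, was represented by 26 of 26 listed genes, of which 0 passed the adjusted threshold and 0 an unadjusted p under 0.05. Of these, 15 had a positive and 11 a negative fold change, with a median of 0.03 that became −0.01 with quantile normalization, −0.0021 (13 and 13) without sh-luc unnumbered and −0.0093 (12 and 14) without sh-luc r2. The median rose to 0.04 (17 and 9) without sh-luc r1. RING1, a ubiquitin ligase, was the most abundant (41.6 to 49.0 FPKM over the 6 libraries), followed by BCOR (32.6 to 42.9 FPKM) and PHC2 (28.5 to 37.8 FPKM). By p, PCGF6 (log2 fold change −0.14, SE 0.08, adjusted p = 0.93) and SCMH1 (0.18, SE 0.11, adjusted p = 0.93) were the leading genes of those reported here, and SCMH1 was 0.05 without sh-luc unnumbered. The groups did not overlap for 1 of 26 genes, SCML2, which was lower in sh-IUR1 and is named after its values were seen. That count does not stand out beside 7.07% of all genes tested.

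The deubiquitinase complex that opposes PRC1 had 9 of 11 listed genes in the table, with 5 positive and 4 negative fold changes and a median of 0.01. The median became −0.01 with median-ratio scaling and with quantile normalization, and −0.02 (3 positive, 6 negative) without sh-luc unnumbered. It rose to 0.03 without sh-luc r2 and to 0.02 without sh-IUR1 r1 (7 positive, 2 negative in each). OGT was its most abundant gene, with 56.0, 66.6 and 60.2 FPKM in sh-luc and 67.5, 64.9 and 67.6 FPKM in sh-IUR1 (log2 fold change 0.13, SE 0.07, adjusted p = 0.93, and 0.07 without sh-luc unnumbered). HCFC1 had 37.7 to 44.8 FPKM, BAP1, the catalytic subunit, 32.4 to 36.4 FPKM, MBD6 10.1 to 12.4 FPKM and ASXL2 5.38 to 7.34 FPKM. Of the H3K4 methyltransferase genes, whose mark opposes that of PRC2, 11 of 11 were tested, 8 positive and 3 negative, with a median of 0.04 (0.00 without sh-luc unnumbered and 0.07 without sh-IUR1 unnumbered). DPY30 (62.8 to 81.0 FPKM), ASH2L (58.3 to 66.5 FPKM) and WDR5 (47.9 to 53.4 FPKM) were the most abundant, and KMT2A had a log2 fold change of 0.14 (SE 0.11) and KMT2C of 0.10 (SE 0.08), which were 0.02 and 0.05 without sh-luc unnumbered. In both lists, 0 genes passed either threshold.

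Of 70 known Polycomb target genes, 31 were in the table and tested. The lowest SD of FPKM over all libraries among genes of the table was 0.0501. A target outside the table may thus have been undetected or too steady to be listed, which cannot be told apart here. Counts and background shares hold for listed genes, and genes under 1 FPKM may be listed only because they varied. Of these, 18 had a positive and 13 a negative fold change, with a median of 0.02, beside 0.02 over all genes tested, that became −0.0041 with quantile normalization. Without sh-luc unnumbered the tally turned to 12 positive and 19 negative, with a median of −0.0041. The median rose to 0.06 without sh-IUR1 r2 (20 positive, 11 negative) and to 0.05 without sh-luc r1 (17 positive, 14 negative). None passed the adjusted threshold (0 of 31), and 1 of 31, GATA3, had an unadjusted p under 0.05, beside 2.65% of all genes tested. GATA3 was listed at 0.24, 0.35 and 0.21 FPKM in sh-luc and 0.45, 0.45 and 0.41 FPKM in sh-IUR1, levels under 1 FPKM at which the unknown depth limits what can be said (log2 fold change 0.18, SE 0.07, adjusted p = 0.93). At this level the size of the fold change is set by the pseudocount, and it was 0.57 with 0.1 FPKM in place of 1. Its unadjusted p was no longer under 0.05 without sh-luc unnumbered, with a fold change of 0.17. The groups did not overlap for 3 of 31 genes, beside 7.07% of all genes tested, GATA3 and HOXB7 higher and GATA6 lower in sh-IUR1, the latter pair named after their values were seen. HOXB9, the most abundant target, had 88.1, 145 and 141 FPKM in sh-luc and 149, 176 and 121 FPKM in sh-IUR1. Its lowest level was again in sh-luc unnumbered, and its log2 fold change of 0.27 (SE 0.18, adjusted p = 0.93) was 0.04 without that library. HOXB2 (32.3 to 40.0 FPKM) and CCND2 (29.1 to 32.8 FPKM) followed, and HOXC8 (0.42 to 0.72 FPKM) and HOXC11 (0.26 to 0.46 FPKM) lay under 1 FPKM.

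The E2F factors and their pocket protein partners (13 of 13 tested) had 6 positive and 7 negative fold changes, with a median of −0.04, and 0 passed either threshold. Leaving out sh-IUR1 r2 turned the median to 0.02 (7 positive, 6 negative), and with any other library left out it lay between −0.03 and −0.0074. E2F4 was the most abundant, at 116 ± 4.86 FPKM in the control group and 113 ± 2.94 FPKM in the knockdown group (SD, n = 3 each). TFDP1, the dimer partner of E2F proteins, had 70.1, 62.9 and 62.9 FPKM in sh-luc and 61.8, 55.6 and 61.7 FPKM in sh-IUR1, and E2F3 had 29.6 to 30.2 FPKM and 27.9 to 29.2 FPKM. These were the genes of the list whose groups did not overlap (2 of 13, beside 7.07% of all genes tested), both lower in sh-IUR1 (3.03% of all genes), with adjusted p = 0.93 each, and TFDP1 (log2 fold change −0.13) was −0.08 without sh-luc unnumbered and −0.08 without sh-IUR1 r1. E2F2 (12.4 to 17.3 FPKM) and E2F8 (7.82 to 9.15 FPKM) overlapped between groups.

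Of the proliferation genes, 7 of 22 had a positive and 15 a negative fold change, with a median of −0.08. The median was −0.0074 without sh-IUR1 r1 (9 positive, 13 negative) and −0.10 with median-ratio scaling (4 positive, 18 negative). Of the 22, 0 passed the adjusted threshold, and 2 of 22, PCNA and CCNB1, had an unadjusted p under 0.05, beside 2.65% of all genes tested. PCNA, the replication clamp, had 185, 159.98 and 165 FPKM in sh-luc and 155, 137 and 159 FPKM in sh-IUR1 (log2 fold change −0.18, SE 0.08, adjusted p = 0.93), and was the gene of the list without overlap (1 of 22, beside 7.07% of all genes tested). Its fold change was −0.11 without sh-luc unnumbered, where the unadjusted p was no longer under 0.05, and −0.11 without sh-IUR1 r1. CCNB1 had 105, 79.2 and 88.6 FPKM in sh-luc and 74.7, 68.7 and 84.95 FPKM in sh-IUR1 (log2 fold change −0.25, SE 0.11, adjusted p = 0.93). Without sh-luc unnumbered its fold change was −0.14 and its unadjusted p was likewise not under 0.05. PLK1 had 81.1 to 98.3 FPKM, TYMS 269 to 301 FPKM and MCM7 292 to 324 FPKM. The 15 stress genes tested all had a positive fold change, with a median of 0.43 that was 0.05 without sh-luc unnumbered (14 positive, 1 negative) and 0.24 without sh-IUR1 r1, and 0 passed either threshold. DDIT4, for example, had 169, 599 and 492 FPKM in sh-luc and 551, 620.4 and 479 FPKM in sh-IUR1, so that its difference rested on the control library without a number. SESN2 (26.2 to 98.5 FPKM), DDIT3 (41.9 to 111 FPKM), SLC7A11 (7.02 to 16.7 FPKM) and ASNS (176 to 308 FPKM) were lowest there too, as was ATF4 (252 to 298 FPKM).

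The labelled cell line was checked against markers. The erythroid genes of K562 cells were abundant, with HBG2 at 3565, 2677 and 2969 FPKM in sh-luc and 2789, 2559 and 2930.4 FPKM in sh-IUR1. All 9 had a negative fold change, with a median of −0.10 (−0.04 without sh-luc unnumbered, with 2 positive and 7 negative, and the same without sh-IUR1 r1), and the groups did not overlap for 1 of 9, HBE1, beside 7.07% of all genes tested. Of 4 T cell markers 3 were in the table, summing to 3.51 to 5.08 FPKM, most of it CD3D. The B cell marker CD79A was at 0.07 to 0.23 FPKM. LYZ was the monocyte marker listed (1 of 4), at 106.96 to 118.74 FPKM, EPCAM the epithelial marker (1 of 3), at 37.9 to 47.6 FPKM, and COL1A1 the fibroblast marker (1 of 4), at 0.21 to 0.37 FPKM. Markers outside the table were not analysed here.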

How the data were processed

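RNA-seq values of 6 K562 libraries (3 sh-luc, 3 sh-IUR1) were used. Per the methods, the authors trimmed and masked the reads, mapped them to hg38 and computed RPKM with SAMtools 0.1.19, while the header of the deposited table names FPKM (2 decimals). The aligner, annotation and handling of read pairs are not given in the sources used here. The authors also deposited a standardized score per library, a cluster number and a membership, which were not used. How genes were chosen for the table is not given in the sources used here. The lowest SD of FPKM over all libraries was 0.0501, so steady genes may have been left out of it. Whole fragments could not be recovered from low values of single-exon genes: at the best of 201 depths tried per library, 40.0% to 60.0% of 10 to 28 values came within 0.1 of a whole number, a tolerance that alone gives 20.0%, so the depth is unknown.

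Entrez identifiers were matched to RefSeq symbols (12363 of 12486). The 12276 genes averaging 0.1 FPKM or more were fitted as log2(FPKM + 1) with limma 3.58.1 in R 4.3.3 (lmFit, eBayes with a trend). Benjamini-Hochberg adjustment was made over all genes tested. The fit had been tested on simulated data with independent noise and changes larger than those of the PRC2 genes. That test does not show the power of the fit for changes as small as those described here. Single ratios and shares were compared by exact two-sided permutation over libraries. Other steps ran in Python 3.11.15 with pandas 2.3.3, numpy 2.4.6 and scipy 1.17.1, and figures with matplotlib 3.10.9. The members and lists were chosen with earlier results of these data known. Named genes are the members, the PRC2 partners and demethylases, from longer lists the 3 with the highest mean FPKM and the 3 with the smallest p, and the 5 with the highest r with EZH2. Some genes of the lists are not reported here. The methods describe independent groups of cells, and p-values measure the spread between these libraries. Alternatives were a pseudocount of 0.1 FPKM, no filter, a minimum of 1 FPKM, median-ratio scaling, quantile normalization, a replicate block and each library left out.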

Additional observations from a re-analysis of the deposited data

How the results depend on the processing

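With limma, 0 genes passed an adjusted p of 0.05 under all 12 alternatives, and 0 PRC2 genes had an unadjusted p under 0.05 under any of them. The count of all genes at an unadjusted p under 0.05 was 325, and 533 with the replicate block. It ranged from 156 (without sh-IUR1 unnumbered) to 854 (without sh-luc r1) with a library left out, and was 712 without sh-IUR1 r2. Deviations of libraries with the same label correlated at 0.04 (unnumbered), 0.39 (r1) and −0.34 (r2), and the paired fit with the block changed no adjusted call.

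Of 120 log2 fold changes of PRC2 genes under these alternatives, 113 kept their direction and 7 reversed. None was called, and the cause was not tested. With median-ratio scaling MTF2 was −0.0009, WDR5 −0.0077 and MCM7 −0.0142. With a library left out, the lowest and highest values were −0.0610 and 0.0131 for EED, −0.1422 and 0.0654 for SUZ12, and −0.0466 and 0.1287 for MTF2. The difference of the log2 EZH2 to EZH1 ratio ranged from −0.0569 to 0.0512. Among the other named genes, the ranges that crossed 0 were −0.0126 to 0.0951 for RING1, −0.0635 to 0.1300 for BCOR, −0.0999 to 0.0247 for HCFC1, −0.0153 to 0.0653 for BAP1, −0.1894 to 0.0038 for ASXL2 and −0.1434 to 0.0101 for DPY30. They were −0.0290 to 0.0477 for WDR5, −0.0022 to 0.0818 for CCND2, −0.0291 to 0.0459 for MCM7 and −0.0218 to 0.0899 for ATF4.

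Depth limits what can be said of genes under 1 FPKM, such as GATA3, HOXC8 and HOXC11. The scalings moved the median of all genes from 0.02 to 0.0015 and −0.0022.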
